A study of Gallus gallus with 6 samples.

Results

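The genes described here belong to the families that copy DNA and divide the cell: the origin recognition and MCM proteins, the CDC and CDK genes, cyclins A, B, D and E, the centromere (CENP) proteins, the kinesins (KIF) and the mitotic kinases of the AURK, PLK and BUB families. They were taken by name, as every row of the deposited table whose gene name begins with 1 of 13 prefixes of these families, and kept where at least 1 library reached 1 CPM (reads of a gene scaled to the same total in each library). Of 17781 rows in the table, 100 matched by name and 92 of those passed the level. The 8 rows removed were CCNA1, CDK3, CDKN1A, CDKN2C, KIF12, KIF2B, KIF6 and 1 of 2 entries named KIF19. The table gives 22 of the 92 under UniProt entry names ending in _CHICK, and that suffix is left out below. The name rule takes in genes that do not act in the cell cycle, so the members are given in groups by family and role: 8 replication genes, 5 cyclins, 2 cell cycle CDKs, 2 CDK inhibitors, 4 mitotic kinases, 3 mitotic CDC genes, 13 centromere genes, 6 mitotic kinesins, 18 other kinesins and 31 other genes named CDC or CDK. Some members sit in a group by family name though known for other roles, given below. These are MCM9 and MCM3AP among the replication genes, PLK2, PLK3 and PLK4 among the mitotic kinases, and CENPJ among the centromere genes.

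The libraries were made from polyadenylated RNA of mesenchyme dissected directly from chick (Gallus gallus) embryos, staged by the Hamburger-Hamilton (HH) series. There was 1 library for each of hindlimb at HH18, forelimb at HH19, presumptive forelimb at HH15, a library labelled flank and neck at HH19, neck at HH19 and flank at HH19. The flank library's title gives 9 where its source label gives HH19, and it was taken as HH19. The labels name no treatment or transgene and do not say how many embryos went into a library. No library has a replicate of the same tissue and stage. A difference between single libraries therefore has no test, and intervals given for such values are 95% Wilson intervals, which cover counting error only.

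A dividing cell licenses its replication origins in G1, when the origin recognition complex (ORC) loads the MCM helicase onto DNA. CDC7 kinase and the cyclin-dependent kinases (CDKs) then switch the helicase on together with CDC45 and MCM10. Cyclins D and E drive the entry into S phase, cyclin A acts through S phase and G2, and cyclin B with CDK1 starts mitosis. In mitosis the CENP proteins build the kinetochore on the centromere, the AURK, PLK and BUB kinases time the attachment of chromosomes, and the mitotic kinesins shape the spindle. Many other kinesins carry cargo along microtubules or work in cilia and are not tied to division. Limb buds grow out from lateral plate mesenchyme whose cells keep dividing while the flank between the buds slows, which is background to the tissues compared here.

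The libraries held between 7130877 and 9623046 counted reads, so that 3 reads were worth 0.312 to 0.421 CPM. The mesenchyme gene PRRX1 was present in every library, TBX4 stood at 131 CPM in hindlimb and at 4.47 CPM or less elsewhere, and TBX5 was at 102 CPM or more in every library but hindlimb. Blood was not evenly present: 5 globin entries held 4.01% of all reads in flank, and 0.00446% to 0.444% elsewhere. PAX3, a gene of migrating muscle precursors, was at 14.8 CPM in forelimb and at 6.16 CPM or less in the others. The summed level of 4 measured ectoderm markers was 4.52 to 5.09 CPM in forelimb and hindlimb, 36.9 in presumptive forelimb, 1.68 in the library labelled flank and neck, 24.7 in neck and 38.1 in flank. Of the 5 muscle markers measured, 3 reached 1 CPM in forelimb, 2 where flank and neck were labelled together and 1 in hindlimb. The part of these other cells in the values below was not tested. The total also sets the CPM scale: the median of all genes differed by -0.27 (forelimb minus neck) to 0.14 (neck minus flank) on the log2(CPM + 1) scale between pairs of the 5 single-tissue libraries, and edgeR's TMM scaling brought every such median to between -0.05 and 0.02. In bulk RNA, fewer dividing cells and less RNA of a gene in each cell cannot be told apart.

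All 92 members together took 0.65% of the reads in hindlimb, 0.63% in forelimb, 0.644% in presumptive forelimb, 0.585% in that labelled flank and neck, 0.629% in neck and 0.57% in flank. The highest of the 5 single-tissue libraries was at least 2-fold above the lowest, on the log2(CPM + 1) scale, for 20 of the 92 members (21.7%), beside 33.3% of the 12486 genes tested. The median spread was 0.59 for the members and 0.76 for all genes. The groups differed in this: 10 of the 18 other kinesins spread at least 2-fold, as did 7 of the 31 other CDC- and CDK-named genes, 1 of the 8 replication genes (CDC7), 1 CDK inhibitor (CDKN1B) and 1 polo kinase (PLK3). No cyclin, no centromere gene, no mitotic kinesin, no mitotic CDC gene and no cell cycle CDK spread that far. Flank held the lowest of the 5 values for 31 members (33.7%, beside 20.6% of all genes), and neck held the highest for 33 members (35.9%, beside 38.7%).

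**Figure D1:**
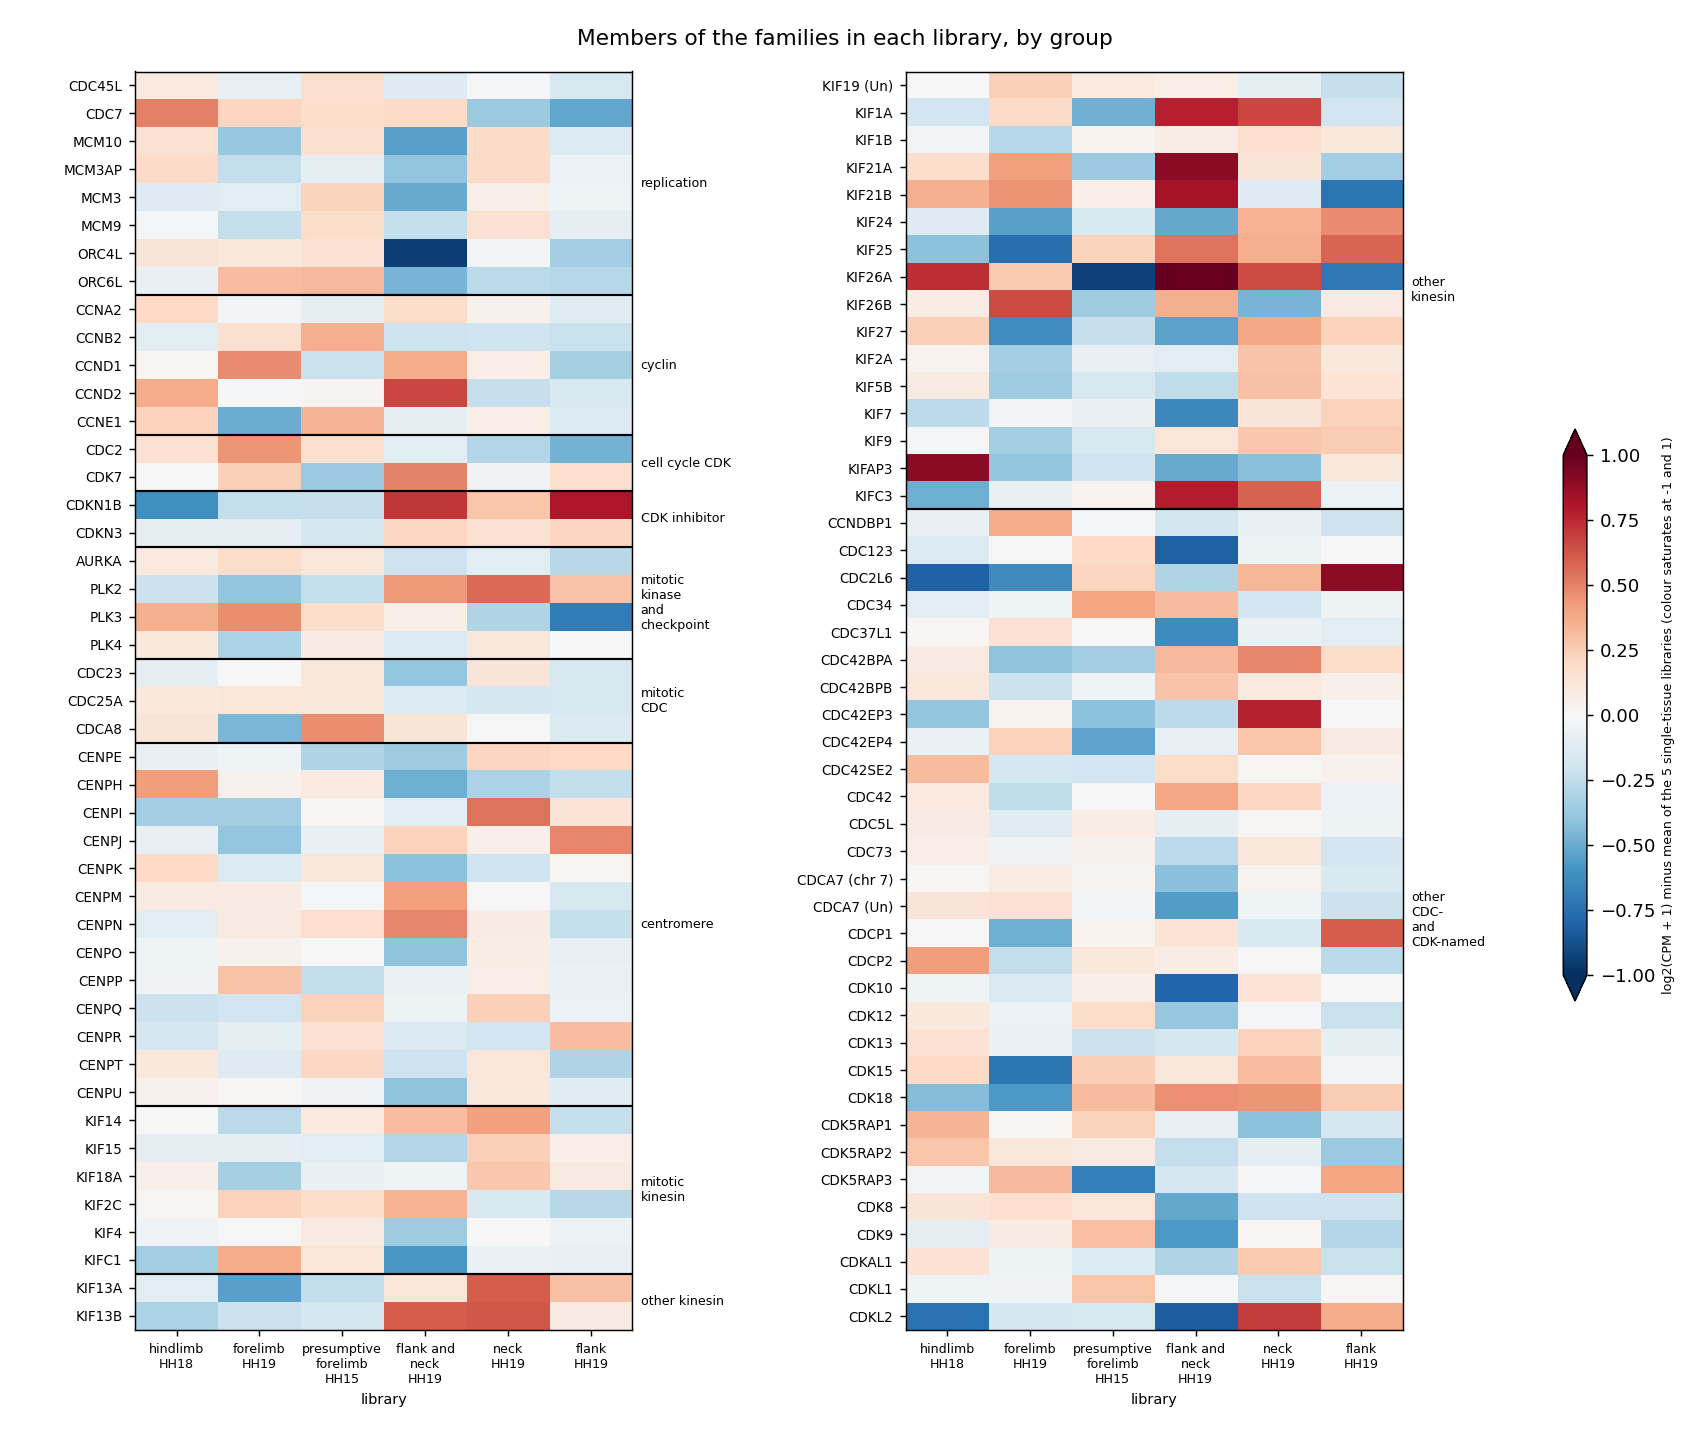
Each row is 1 of 91 members and each column 1 library; colour gives log2(CPM + 1) minus the mean over the 5 single-tissue libraries, red above and blue below, saturating at -1 and 1. The replication, cyclin and centromere rows are mostly pale in the 5 single-tissue libraries, while other kinesins such as KIF26A (124.8 CPM in forelimb, 53.99 CPM in presumptive forelimb) carry the strongest colours.

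The study set limb mesenchyme beside non-limb mesenchyme, and the 3 limb libraries were compared as a class with neck and flank. Neck and flank were both at HH19 and the limb libraries at HH15, HH18 and HH19, so class and stage cannot be fully told apart. Tissues and stages of a class stand in for replicates, so a p-value measures only whether the classes differ beyond the spread among those. None of the 92 members passed edgeR's adjusted threshold (0.05, over 12486 genes), which 0.136% of all genes did, 0.0561% higher and 0.0801% lower in limb. At an unadjusted p below 0.05 edgeR had 16 members higher and 8 lower in limb, 24 in all, beside 23.4% of all genes (12.9% higher and 10.5% lower). DESeq2 called 10 of 91 members after adjustment, all higher in limb, beside 11.6% of 11513 genes (7.5% higher and 4.11% lower). Its unadjusted calls were 16 higher and 6 lower, beside 13.1% and 9.29% of 12482 genes. With limma-voom 0 of 92 passed after adjustment, beside 0.849% of all genes, and 26 did before it, beside 23.6%. In CPM, 18 members (19.6%, beside 15.4% of all genes) lay above neck and flank in every limb library and 21 (22.8%, beside 27.5%) lay below. With TMM scaling the split was 31 above and 14 below, beside 21.7% and 21.6% of all genes, and centred on the median gene it was 32 and 13, beside 22.5% and 21%. More members thus lay below than above in CPM and more lay above than below under either other scaling. All 18 stayed above under both other scalings tried, and 12 of the 21 stayed below under both. With presumptive forelimb left out edgeR called 2 members, CDK1 and CDC7, beside 5.05% of 12267 genes. With neck left out 35 members lay above the remaining non-limb library, beside 27% of all genes, and with flank left out 41 lay below, beside 47.3%. The median log2 fold change was 0.14 over the members and -0.02 over all genes.

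Many of these separations were small or did not extend to the library labelled flank and neck. The counting intervals of all 3 limb libraries lay above those of neck and flank for 5 of the 18 members (beside 4.78% of all genes), AURKA, CCNB2, CDC7, CDK1 and CENPH. They lay below for 5 of the 21 (beside 5.54%), CDKN1B, CENPE, KIF13A, KIF15 and KIF24. For the other 13 and 16 members at least 1 limb interval overlapped that of neck or flank. With the library labelled flank and neck added to the non-limb class, 13 members lay above (beside 9.5% of all genes) and 11 below (beside 14.1%). The 5 that no longer lay above were CCND2, CDC7, KIF2C, KIF21B and the KIF19 entry. The 10 that no longer lay below were CDC2L6, CDKL2, CENPE, CENPI, KIF15, KIF18A, KIF24, KIF2A, KIF5B and KIF7.

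**Figure D2:**
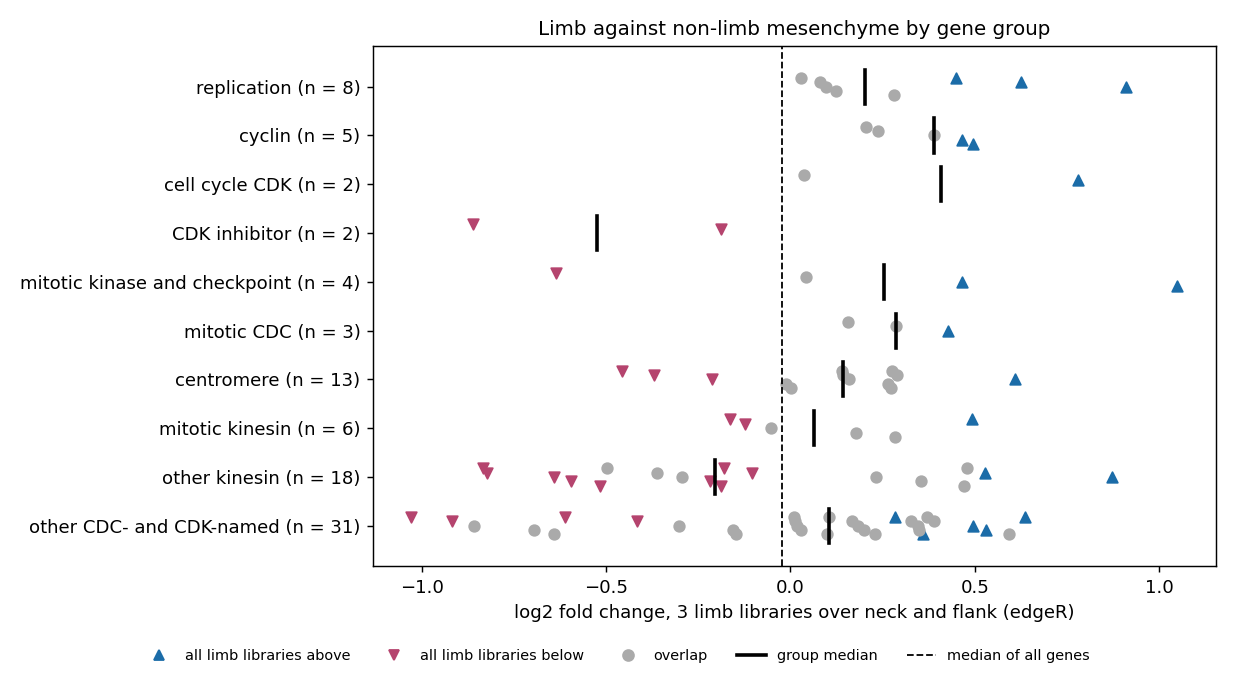
Each point is 1 member, placed by its edgeR log2 fold change, the 3 limb libraries over neck and flank, with groups down the page; triangles mark members whose limb libraries all lie above or all below neck and flank in CPM, black bars the group medians and the dashed line the median of all 12486 genes. With the TMM scaling that these fold changes use, the 8 replication genes and 5 cyclins all lie right of 0, with medians of 0.20 and 0.39. The 18 other kinesins reach from -0.83 to 0.87 around a median of -0.20.

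Of the replication genes, all 8 had a positive edgeR log2 fold change, which uses TMM scaling. Without that scaling, in CPM, MCM3, MCM3AP, MCM9 and MCM10 were lower than neck in both forelimb and hindlimb. In CPM 3 of the 8 lay above neck and flank in every limb library and 0 lay below. TMM scaling and centring on the median gene each gave 4 and 0. CDC7, the kinase that activates the loaded helicase, stood at 55.5 CPM in hindlimb, 45.2 in forelimb and 44.03 in presumptive forelimb, against 29.7 in neck and 26.7 in flank. All 3 limb libraries lay above both others, by a log2 fold change of 0.91 ± 0.18 (SE, 3 against 2 libraries, edgeR adjusted p = 0.0699), while the library labelled flank and neck, at 44.5 CPM, lay level with forelimb and presumptive forelimb. The origin recognition subunits among the members also lay above in every limb library. ORC6L had 21.7 CPM in hindlimb, 28.7 in forelimb and 28.9 in presumptive forelimb, against 18.8 in neck and 18.6 in flank. ORC4L had 71.6 CPM in hindlimb, 70.2 in forelimb and 72.2 in presumptive forelimb, against 64.1 in neck and 51.0 in flank. Their log2 fold changes were 0.63 ± 0.19 (edgeR adjusted p = 0.129) and 0.45 ± 0.13 (edgeR adjusted p = 0.117).

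The limb and non-limb libraries overlapped in CPM for the helicase and its partners. MCM3, a subunit of the helicase ring, was at 298 CPM in hindlimb, 301 in forelimb and 379 in presumptive forelimb, against 338 in neck and 316 in flank, so only presumptive forelimb lay above both non-limb libraries and the classes overlapped. CDC45L, which joins the active helicase, was at 74.9 CPM in hindlimb, 65.7 in forelimb and 77.97 in presumptive forelimb, against 69.05 in neck and 62.4 in flank; the limb libraries lay above both others only after TMM scaling or centring. MCM10, which acts as the helicase is switched on, was lower in forelimb than in the other 4 single-tissue libraries, at 44.2 CPM in hindlimb, 30.3 in forelimb and 44.5 in presumptive forelimb, against 45.5 in neck and 35.9 in flank. MCM9, a relative of the ring proteins known for DNA repair, ranged from 11.6 to 15.8 CPM over the 5 single-tissue libraries, and its locus overlaps ASF1 on the other strand. MCM3AP, named for its binding to MCM3 and known for messenger RNA export, ranged from 75.6 to 102 CPM. None of these 5 had an edgeR adjusted p below 0.234.

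Of the 5 cyclins, CCNB2 and CCND2 lay above neck and flank in every limb library. CCNB2, a mitotic cyclin that works with CDK1, stood at 538 CPM in hindlimb, 647 in forelimb and 744 in presumptive forelimb, against 503 in neck and 494 in flank. The library labelled flank and neck, at 501 CPM, was close to neck and flank, and all 3 limb libraries were higher (log2 fold change 0.49 ± 0.15, edgeR adjusted p = 0.127). CCND2, a G1 cyclin, stood at 45.7 CPM in hindlimb, 34.6 in forelimb and 35.9 in presumptive forelimb, against 29.9 in neck and 31.5 in flank (log2 fold change 0.47 ± 0.19, edgeR adjusted p = 0.217). The library labelled flank and neck held 56.5 CPM of it, above every limb library.

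The other 3 cyclins overlapped between the classes. CCND1, the other G1 cyclin of the set, was highest in forelimb, at 73.9 CPM in hindlimb, 102 in forelimb and 62.3 in presumptive forelimb, against 76.5 in neck and 57.7 in flank. CCNE1, which acts at the start of S phase, showed the reverse among the limb libraries, with 21.2 CPM in hindlimb, 12.4 in forelimb and 23.0 in presumptive forelimb, against 18.8 in neck and 16.2 in flank. Forelimb was thus highest for CCND1 and lowest for CCNE1, and the order of the limb libraries was forelimb, hindlimb, presumptive forelimb for the first and presumptive forelimb, hindlimb, forelimb for the second. The intervals of hindlimb and presumptive forelimb overlapped for CCNE1 and did not for CCND1. CCNA2, the S phase and G2 cyclin, ranged only from 84.4 CPM in flank to 105.8 in hindlimb, and the limb libraries lay above both others only after centring on the median gene.

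CDK1, listed as CDC2, had the lowest edgeR adjusted p of all members. This kinase, which brings cells into mitosis, stood at 664 CPM in hindlimb, 811 in forelimb and 670.0 in presumptive forelimb, against 488 in neck and 429 in flank. The log2 fold change was 0.78 ± 0.15 with an edgeR adjusted p of 0.0676, and the library labelled flank and neck, at 552 CPM, also lay below every limb library. CDK7, which activates other CDKs and serves in transcription, showed no such split, with 24.0 CPM in hindlimb, 28.5 in forelimb and 18.4 in presumptive forelimb, against 23.5 in neck and 27.1 in flank. The CDK inhibitors lay on the other side. CDKN1B, the p27 inhibitor, stood at 9.77 CPM in hindlimb, 12.9 in forelimb and 13.04 in presumptive forelimb, against 18.9 in neck and 27.9 in flank, below both non-limb libraries in all 3 limb libraries (log2 fold change -0.86 ± 0.26, edgeR adjusted p = 0.133). A separate entry that the table describes as a p27 protein, Q8JIV2_CHICK, had 2.39 CPM in hindlimb, 4.52 in forelimb and 4.63 in presumptive forelimb, against 6.39 in neck and 7.25 in flank. Its CPM values did not overlap between the classes, but they were low and counting intervals are not given for it. CDKN3, a phosphatase that acts on CDKs, differed less, at 17.3 CPM in hindlimb, 17.3 in forelimb and 16.3 in presumptive forelimb, against 20.6 in neck and 21.6 in flank, and its classes overlapped after centring on the median gene.

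**Figure D3:**
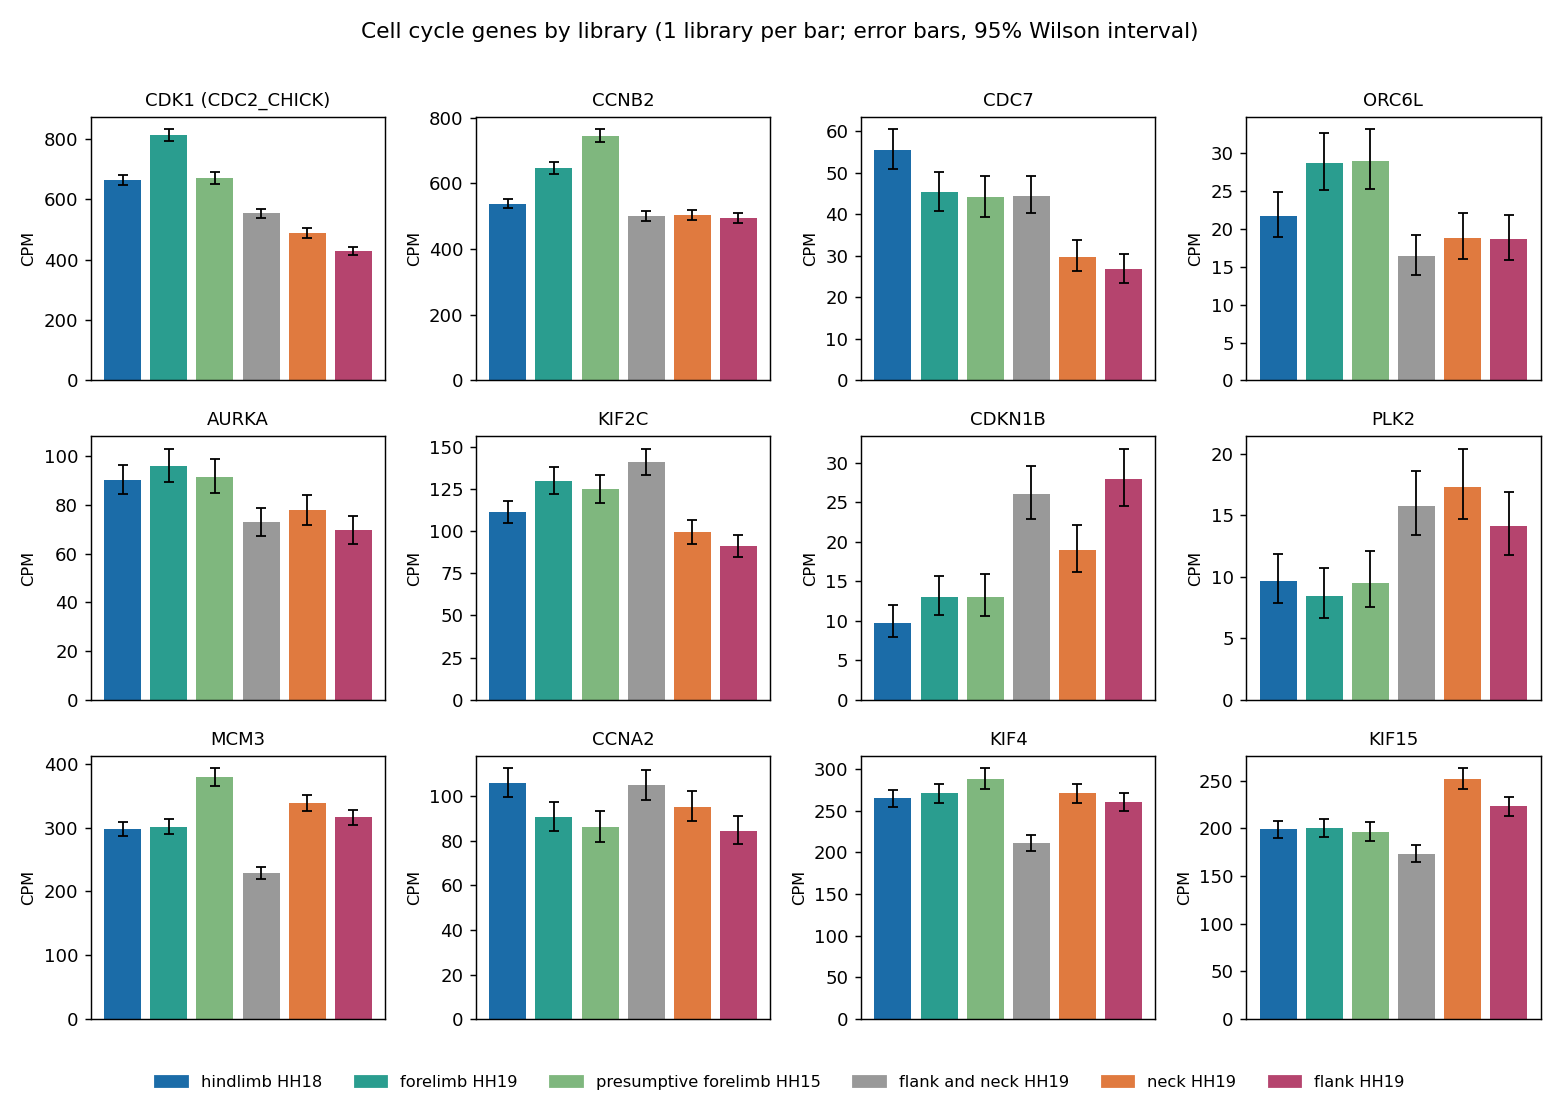
Bars give CPM in each of the 6 libraries for 12 cell cycle genes, from hindlimb at the left to flank at the right, with 95% Wilson intervals for counting error. CDK1, CCNB2, CDC7, ORC6L, AURKA and KIF2C are higher in the 3 limb bars than in neck and flank, though the bar of the library labelled flank and neck is higher still for KIF2C and level with 2 limb bars for CDC7; CDKN1B and PLK2 are lower, and MCM3, CCNA2 and KIF4 overlap; the limb bars of KIF15 (196.5 to 200.1 CPM) lie below neck (252 CPM) and flank (223 CPM).

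The polo and aurora kinases lay on both sides. AURKA, which works at the spindle poles, stood at 90.2 CPM in hindlimb, 96.0 in forelimb and 91.6 in presumptive forelimb, against 77.8 in neck and 69.5 in flank, with the limb libraries close to each other and above both others (log2 fold change 0.47 ± 0.12, edgeR adjusted p = 0.102). PLK3, a polo kinase known in stress responses, stood at 14.1 CPM in hindlimb, 15.3 in forelimb and 12.3 in presumptive forelimb, against 8.60 in neck and 6.28 in flank (log2 fold change 1.05 ± 0.23, edgeR adjusted p = 0.0815). PLK3 overlaps Q5ZHR5_CHICK on the opposite strand, and counting by strand is not stated. Q5ZHR5_CHICK itself was at 72.5 CPM in hindlimb, 98.3 in forelimb and 62.97 in presumptive forelimb, against 53.2 in neck and 50.3 in flank. PLK2, another stress-responsive polo kinase, lay on the low side in limb, with 9.66 CPM in hindlimb, 8.42 in forelimb and 9.54 in presumptive forelimb, against 17.3 in neck and 14.1 in flank (log2 fold change -0.64 ± 0.18, edgeR adjusted p = 0.119). PLK4, which starts centriole duplication, was at 70.6 CPM in hindlimb, 52.4 in forelimb and 69.8 in presumptive forelimb, against 70.8 in neck and 65.8 in flank, lowest in forelimb.

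The 3 mitotic CDC genes had positive log2 fold changes. CDC25A, the phosphatase that removes the inhibitory phosphates from CDKs, stood at 19.95 CPM in hindlimb, 20.2 in forelimb and 20.1 in presumptive forelimb, against 16.2 in neck and 16.4 in flank (log2 fold change 0.43 ± 0.16, edgeR adjusted p = 0.181), and the counting intervals of every limb library overlapped those of neck and flank. CDC23, a subunit of the anaphase-promoting complex, ranged from 77.2 CPM in flank to 94.5 in neck. Its limb libraries lay above both others after TMM scaling, but not in CPM or after centring. CDCA8, the chromosomal passenger protein borealin, had its extremes inside the limb class, with 87.8 CPM in hindlimb, 58.2 in forelimb and 111 in presumptive forelimb, against 80.5 in neck and 72.6 in flank.

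Among the 13 centromere genes, CENPH lay above and CENPE, CENPI and CENPJ lay below neck and flank in every limb library. CENPH, a protein of the constitutive centromere network, stood at 91.9 CPM in hindlimb, 70.6 in forelimb and 73.6 in presumptive forelimb, against 55.04 in neck and 57.8 in flank (log2 fold change 0.61 ± 0.17, edgeR adjusted p = 0.118). CENPI, of the same network, stood at 19.95 CPM in hindlimb, 19.9 in forelimb and 25.7 in presumptive forelimb, against 37.6 in neck and 28.2 in flank (log2 fold change -0.46 ± 0.17, edgeR adjusted p = 0.186). CENPE, the kinesin motor of the kinetochore, stood at 128 CPM in hindlimb, 130.1 in forelimb and 109 in presumptive forelimb, against 156 in neck and 155 in flank (log2 fold change -0.21 ± 0.15, edgeR adjusted p = 0.417). CENPJ, which despite its name builds centrioles, stood at 12.9 CPM in hindlimb, 10.2 in forelimb and 12.9 in presumptive forelimb, against 14.1 in neck and 19.5 in flank, and its classes overlapped after TMM scaling. With TMM scaling the count for the 13 genes was 4 above and 2 below.

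The other 9 centromere genes, CENPK, CENPM, CENPN, CENPO, CENPP, CENPQ, CENPR, CENPT and CENPU, spread by between 0.15 and 0.53 on the log2 scale over the 5 single-tissue libraries. CENPO, at 37.7 to 42.02 CPM, varied least. CENPO, CENPP, CENPR, CENPT and CENPU each overlap another entry on the opposite strand. CENPK and CENPH lie on chromosome Z, as do 7 other members. The median of Z genes differed by 0.22 between hindlimb and forelimb, beside 0.01 for genes elsewhere, and by -0.37 between forelimb and flank, beside -0.09. CENPK stood at 115 CPM in hindlimb, 90.5 in forelimb and 108 in presumptive forelimb, against 86.7 in neck and 101 in flank, and CENPH differed by 0.37 between hindlimb and forelimb.

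The 6 mitotic kinesins had a median spread of 0.55 on the log2 scale, beside 0.59 for all members, and a median log2 fold change between limb and non-limb of 0.06. In CPM KIF2C, which depolymerises microtubules at the kinetochore, was the 1 member above neck and flank in every limb library. It had 111 CPM in hindlimb, 129.7 in forelimb and 125 in presumptive forelimb, against 99.1 in neck and 90.9 in flank (log2 fold change 0.49 ± 0.13, edgeR adjusted p = 0.099). The library labelled flank and neck, at 141 CPM, lay above all of them. KIF15, which helps keep the spindle bipolar, was below in every limb library, at 199 CPM in hindlimb, 200.1 in forelimb and 196 in presumptive forelimb, against 252 in neck and 223 in flank. KIF18A, which aligns chromosomes, was at 41.98 CPM in hindlimb, 32.04 in forelimb and 38.6 in presumptive forelimb, against 49.02 in neck and 43.3 in flank, and overlapped after TMM scaling. KIF4, a chromosome-bound motor of the spindle midzone, was at 265 CPM in hindlimb, 271 in forelimb and 288 in presumptive forelimb, against 271 in neck and 260.3 in flank, the smallest spread of all 92 members at 0.15. The limb libraries lay above both others for KIF4 only after TMM scaling or centring. KIFC1, a motor that focuses spindle poles, had its extremes inside the limb class, with 98.3 CPM in hindlimb, 162 in forelimb and 136 in presumptive forelimb, against 119 in neck and 119 in flank. KIF14, a motor of cytokinesis, ranged from 5.53 CPM in forelimb to 9.46 in neck.

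The other kinesins were the most varied group, with a median spread of 1.01 on the log2 scale. KIF26A, an atypical kinesin that binds microtubules and is known from mouse enteric neurons, stood at 174 CPM in hindlimb, 125 in forelimb and 53.99 in presumptive forelimb, against 164 in neck and 62.8 in flank. Hindlimb and neck were high, presumptive forelimb and flank were low, and the order did not follow the classes. KIF26B, its relative, known in mouse from the mesenchyme of the developing kidney, was highest in forelimb, at 61.2 CPM in hindlimb, 91.9 in forelimb and 45.2 in presumptive forelimb, against 41.8 in neck and 61.8 in flank. Its locus overlaps Q2MHD2_CHICK and U54 on the opposite strand, and Q2MHD2_CHICK was at 479 CPM in forelimb, against 581 in presumptive forelimb. KIFAP3, the accessory subunit of the kinesin-2 motor that serves cilia, was highest in hindlimb and next in flank, with 272 CPM in hindlimb, 110.1 in forelimb and 126 in presumptive forelimb, against 108 in neck and 157 in flank.

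KIF21B and KIF21A restrain microtubule growth. KIF21B lay above in every limb library, with 41.7 CPM in hindlimb, 44.5 in forelimb and 33.9 in presumptive forelimb, against 29.5 in neck and 19.1 in flank (log2 fold change 0.87 ± 0.23, edgeR adjusted p = 0.105). The library labelled flank and neck, at 58.5 CPM, lay above every limb library. KIF21A overlapped between the classes, with 49.7 CPM in hindlimb, 58.7 in forelimb and 33.8 in presumptive forelimb, against 48.2 in neck and 34.2 in flank. KIF1A, a vesicle motor best known in neurons, was highest in neck of these 5 libraries, at 19.1 CPM in hindlimb, 25.3 in forelimb and 15.4 in presumptive forelimb, against 35.5 in neck and 19.1 in flank. The entry KIF19 that passed the level, near the floor, had 2.29 CPM in hindlimb, 2.89 in forelimb and 2.52 in presumptive forelimb, against 2.09 in neck and 1.81 in flank, and it overlaps another entry on its own strand.

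Below neck and flank in every limb library were 9 of these 18 kinesins, a count that TMM scaling and centring both brought to 5. KIF13A, an endosomal motor, stood at 19.95 CPM in hindlimb, 14.6 in forelimb and 18.1 in presumptive forelimb, against 33.5 in neck and 26.7 in flank (log2 fold change -0.64 ± 0.18, edgeR adjusted p = 0.116). KIF13B, its relative, stood at 9.98 CPM in hindlimb, 10.8 in forelimb and 11.1 in presumptive forelimb, against 20.03 in neck and 13.5 in flank (log2 fold change -0.52 ± 0.20, edgeR adjusted p = 0.194). KIF24, which acts at centrioles and lies on Z, stood at 12.9 CPM in hindlimb, 9.42 in forelimb and 12.6 in presumptive forelimb, against 18.3 in neck and 20.1 in flank (log2 fold change -0.60 ± 0.21, edgeR adjusted p = 0.161). KIF9 reached only 1.11 CPM in neck and 0.377 CPM, at the floor, in forelimb. KIF25 stood at 2.18 CPM in hindlimb, 1.51 in forelimb and 3.93 in presumptive forelimb, against 4.42 in neck and 5.32 in flank, and its classes overlapped after centring on the median gene. It overlaps FRMD1 on the opposite strand, which had 13.5 CPM in hindlimb, 10.6 in forelimb and 57.8 in presumptive forelimb, against 40.3 in neck and 36.3 in flank. KIF5B, the heavy chain of conventional kinesin, had 118 CPM in hindlimb, 86.2 in forelimb and 99.1 in presumptive forelimb, against 136 in neck and 122 in flank. KIF7, a regulator of hedgehog signalling in cilia, had 19.7 CPM in hindlimb, 23.5 in forelimb and 22.7 in presumptive forelimb, against 26.2 in neck and 28.3 in flank. The classes of KIF5B, KIF7 and KIF1B overlapped after either scaling. KIF2A, a microtubule depolymerase on Z, overlapped after TMM scaling. The remaining members, KIF27 and KIFC3, overlapped between the classes, with 10.7 to 22.5 CPM and 1.45 to 4.18 CPM over the 5 single-tissue libraries.

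**Figure D4:**
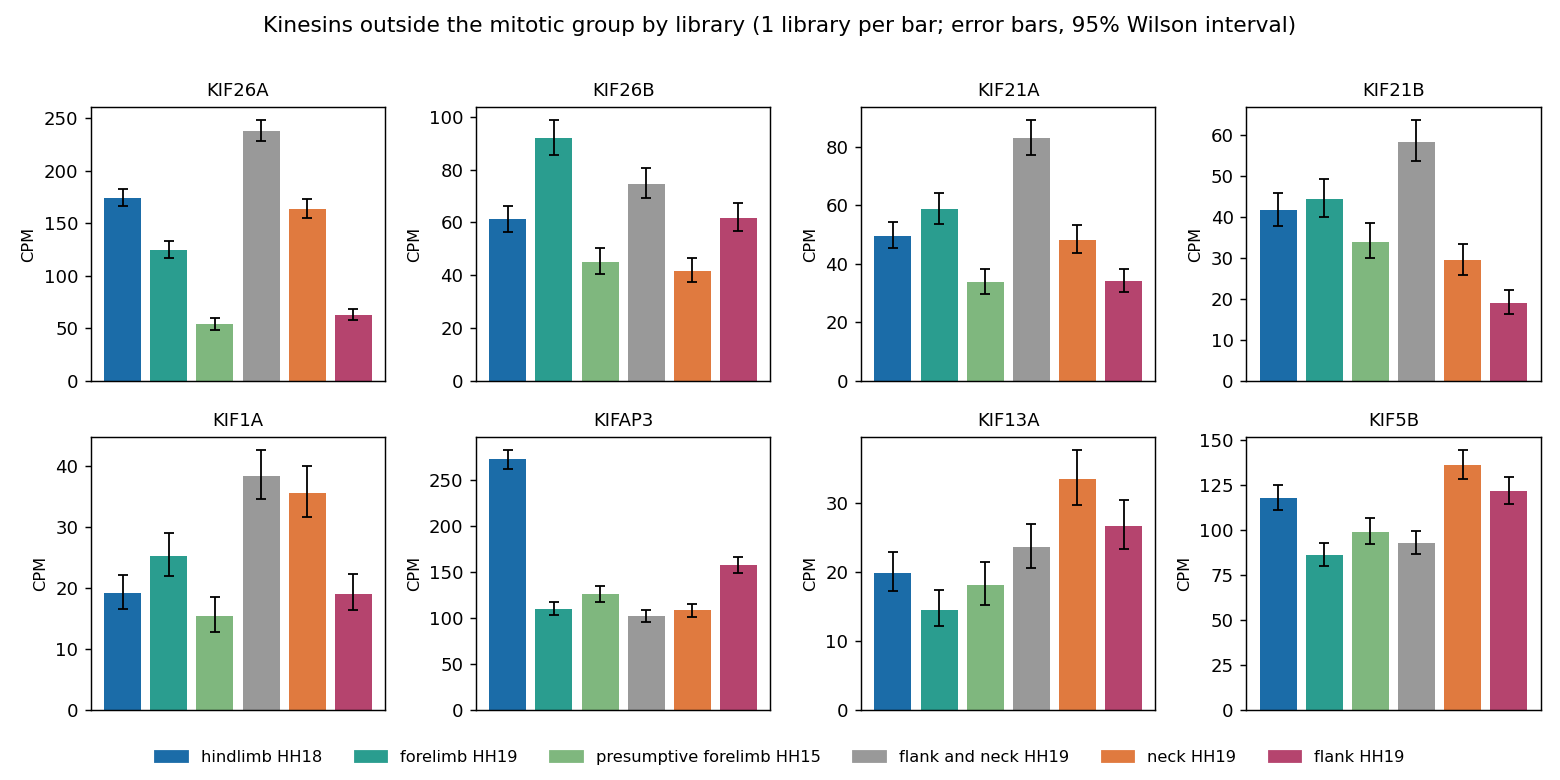
Bars give CPM in each of the 6 libraries for 8 kinesins outside the mitotic group, with 95% Wilson intervals for counting error. KIFAP3 stands out in hindlimb (272 CPM) and KIF26B in forelimb (91.9 CPM), KIF26A ranges from 53.99 CPM in presumptive forelimb to 238 CPM in the library labelled flank and neck, and KIF13A is lower in the 3 limb libraries than in neck and flank.

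The 31 other CDC- and CDK-named genes share a name rather than a task. CDC2L6 (the gene now called CDK19, a kinase of the Mediator complex) and CDK8, its relative in that complex, lay on opposite sides. CDC2L6 stood at 12.1 CPM in hindlimb, 13.8 in forelimb and 25.5 in presumptive forelimb, against 27.8 in neck and 41.6 in flank (log2 fold change -0.92 ± 0.36, edgeR adjusted p = 0.195), and its classes overlapped after either scaling. CDK8 stood at 30.6 CPM in hindlimb, 31.4 in forelimb and 30.4 in presumptive forelimb, against 23.96 in neck and 23.9 in flank (log2 fold change 0.49 ± 0.15, edgeR adjusted p = 0.129). These CPM values did not overlap between the classes, but the counting intervals of hindlimb and presumptive forelimb overlapped those of neck and flank. CDK5RAP2, which organises microtubules at the centrosome, stood at 119 CPM in hindlimb, 106 in forelimb and 103 in presumptive forelimb, against 91.4 in neck and 75.3 in flank (log2 fold change 0.53 ± 0.13, edgeR adjusted p = 0.0973), and it overlaps an unnamed entry on the opposite strand. CDK5RAP1, a transfer RNA modifying enzyme, stood at 20.4 CPM in hindlimb, 15.96 in forelimb and 18.7 in presumptive forelimb, against 11.7 in neck and 14.02 in flank (log2 fold change 0.64 ± 0.21, edgeR adjusted p = 0.149).

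CDCA7, a chromatin factor of proliferating cells, has an entry on chromosome 7 and another on unplaced sequence, which could share reads. The unplaced entry lay above in every limb library, with 47.5 CPM in hindlimb, 48.3 in forelimb and 42.5 in presumptive forelimb, against 41.9 in neck and 37.1 in flank, and the other had 102 CPM in hindlimb, 108 in forelimb and 104 in presumptive forelimb, against 105 in neck and 91.5 in flank, above only after TMM scaling or centring. CDC37L1, a chaperone partner on Z, was the other of the 5 genes of this group above in every limb library, with 23.3 CPM in hindlimb, 25.6 in forelimb and 23.1 in presumptive forelimb, against 21.99 in neck and 21.3 in flank. The 4 below included CDC2L6, CDKL2 and CDC42BPA, a kinase that acts with CDC42. CDKL2 stood at 1.35 CPM in hindlimb, 2.51 in forelimb and 2.52 in presumptive forelimb, against 5.41 in neck and 4.11 in flank (log2 fold change -1.03 ± 0.39, edgeR adjusted p = 0.189), and it overlaps SCLT1 on the opposite strand. CDC42BPA stood at 59.5 CPM in hindlimb, 42.1 in forelimb and 43.8 in presumptive forelimb, against 78.9 in neck and 63.7 in flank (log2 fold change -0.42 ± 0.20, edgeR adjusted p = 0.256).

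The remaining 22 genes of this group overlapped between the classes in CPM. Among them CDC42, a GTPase of the cytoskeleton, was at 399 CPM in hindlimb, 314 in forelimb and 374 in presumptive forelimb, against 432 in neck and 359 in flank, and CDC5L, a splicing factor, at 209 to 242 CPM over the 5 single-tissue libraries. The transcription elongation kinases CDK9, CDK12 and CDK13 ranged from 51.7 to 78.4, from 49.3 to 65.5 and from 67.3 to 92.3 CPM in the same libraries. CDK9 and CDK12 lay above in every limb library after TMM scaling, as did CCNDBP1, CDC34, CDC5L, CDC73 and the CDCA7 entry on chromosome 7.

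The comparison of forelimb HH19 with presumptive forelimb HH15 follows the same limb field as it becomes a bud, with 1 library each and no test. Of 90 members at 1 CPM or more in either library, 3 were at least 2-fold apart, all higher in forelimb, beside 9.6% of 11807 genes (3.43% higher and 6.17% lower). They were KIF26A, with a difference of 1.19 on the log2(CPM + 1) scale, KIF26B (1.01) and CDK5RAP3 (1.01), the last at 2.14 CPM in forelimb, against 0.561 in presumptive forelimb with overlapping intervals. Next were KIF21A (0.78) and CDC42EP4 (0.76), an effector of CDC42. The largest differences in the other direction were CDK15 (-0.98) and CDK18 (-0.89), both near the floor with overlapping intervals, KIF25 (-0.97), CDCA8 (-0.92) and CDC2L6 (-0.84).

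By group, the replication members were lower in CPM in forelimb than in presumptive forelimb in 7 of 8, with a median of -0.20, beside -0.10 for all genes. TMM scaling (factors 0.942 for forelimb and 1.019 for presumptive forelimb) brought that median of all genes to 0.002. ORC4L, at 70.2 against 72.2 CPM, and ORC6L then lay higher in forelimb. In CPM ORC6L, at 28.7 against 28.9, was nearly level. Replication genes outside the name rule split in CPM. MCM2, MCM4, MCM6, PCNA, RRM1, RRM2, CDT1, DBF4, GINS1, GINS3, TYMS and RPA3 were higher in forelimb. MCM5, ORC5, GMNN, RFC2, TIPIN and UHRF1 were lower. Of the cell cycle CDKs, CDK1 (0.27) and CDK7 (0.61) were higher in forelimb. The cyclins split, with CCND1 at 0.70 and CCNE1 at -0.84. Hindlimb HH18 against presumptive forelimb HH15 gave 2 members at least 2-fold higher, KIF26A (1.67) and KIFAP3 (1.10), and 1 lower, CDC2L6 (-1.02), beside 9.78% of 11763 genes (3.26% higher and 6.52% lower). KIF26A was thus higher than in presumptive forelimb in both later buds, which were set against the same presumptive forelimb library.

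Hindlimb HH18 and forelimb HH19 differ in limb type and in stage. Of 90 members, 1 was at least 2-fold apart, KIFAP3, at 1.30, beside 4.02% of 11444 genes (1.78% higher and 2.24% lower). The members next in the same direction were CDK15 (0.93, overlapping intervals), KIF27 (0.86), a ciliary kinesin on Z, CCNE1 (0.72) and CDCP2 (0.66, overlapping intervals). Lower in hindlimb than in forelimb were KIFC1 (-0.71), CDKL2 (-0.58, overlapping intervals), KIF26B (-0.58), CCND1 (-0.45) and CCNDBP1 (-0.45). The intervals of the libraries lay apart for 29 of the 90 members.

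Forelimb against neck and against flank asks what separates a bud from trunk mesenchyme of the same stage. Against neck, 1 of 91 members was at least 2-fold higher in forelimb, KIF26B (1.12), and 5 were lower, KIF13A (-1.15), KIF25 (-1.11), CDK15 (-1.04), CDK18 (-1.02) and KIF27 (-1.01), beside 16.9% of 11959 genes (3.46% higher and 13.4% lower). CDK15, at 0.503 CPM in forelimb, was near the floor. Next on the high side were PLK3 (0.77), CDK1 (0.73), CDC7 (0.59) and ORC6L (0.58). The median of all genes stood at -0.27 in this comparison and that of the members at -0.15, and with TMM scaling 1 member, KIF26B, remained at least 2-fold apart. Against flank, KIF21B (1.18) and PLK3 (1.16) were at least 2-fold higher in forelimb. In that comparison CDC2L6 (-1.52), KIF25 (-1.33), CDCP1 (-1.09), CDKN1B (-1.05) and KIF24 (-1.01) were at least 2-fold lower, beside 13.9% of 11818 genes (4.15% higher and 9.74% lower). CDCP1, at 0.377 CPM in forelimb, was at the floor. Next on the high side were KIF26A (0.98), CDK1 (0.92) and CCND1 (0.81).

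In hindlimb against neck, KIFAP3 (1.32) was at least 2-fold higher in hindlimb, followed by CDC7 (0.88), CDK5RAP1 (0.75), CENPH (0.73) and PLK3 (0.66). In the same comparison CDKL2 (-1.45), CDC42EP3 (-1.17), CDC2L6 (-1.14) and KIFC3 (-1.08) were at least 2-fold lower, beside 15.1% of 11947 genes (2.73% higher and 12.4% lower); KIF13B (-0.94) was next. Against flank, KIF26A (1.46), KIF21B (1.09), PLK3 (1.05) and CDC7 (1.03) were at least 2-fold higher in hindlimb and CDC2L6 (-1.71), CDKN1B (-1.43) and CDKL2 (-1.12) lower, beside 12.4% of 11754 genes (3.5% higher and 8.88% lower). Hindlimb, at HH18, differs from neck and flank, at HH19, in stage as well as tissue. Forelimb and hindlimb were set against the same neck and flank libraries.

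Presumptive forelimb, at HH15, had no member at least 2-fold above neck or flank, both at HH19. It had KIF26A (-1.59), CDC42EP3 (-1.18) and KIF1A (-1.15) at least 2-fold below neck, beside 12% of 12098 genes (3.17% higher and 8.85% lower), and CDK5RAP3 (-1.08) and CDKN1B (-1.04) below flank, beside 8.43% of 11930 genes (3.52% higher and 4.91% lower). CDK5RAP3, at 0.561 CPM in presumptive forelimb, was near the floor. Between neck and flank, KIF26A (1.37) was the 1 member of 92 at least 2-fold apart, higher in neck, beside 7.39% of 11970 genes (5.15% higher and 2.25% lower). All 8 replication genes and all 6 mitotic kinesins had higher CPM in neck than in flank, with medians of 0.20 and 0.15, close to the median of all genes, 0.14. The largest of these differences was KIF14 (0.65), whose intervals lay apart, as did those of KIF15, MCM3AP, MCM10 and ORC4L.

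The library labelled flank and neck was set beside the neck and flank libraries, whose tissues its label names. Of the 92 members, 44 (47.8%, beside 48.3% of 12388 genes) lay below both and 26 (28.3%, beside 32.8%) above both, so it did not lie between them for most members; with TMM scaling the counts were 40 below and 43 above (beside 41.8% and 40.5% of all genes), and centred on the median gene 36 and 44 (beside 39.4% and 42.5%). Of the 8 replication genes 6 lay below both, 6 with TMM scaling and 5 when centred. ORC4L had 33.5 CPM in the library labelled flank and neck, against 64.1 in neck and 51.0 in flank. MCM3 had 228 CPM in the library labelled flank and neck, against 338 in neck and 316 in flank. The helicase subunits listed under other names also lay below both. MCM5 had 189.6 CPM in the library labelled flank and neck, against 403 in neck and 323 in flank. The level of MCM2 was 165 CPM in the library labelled flank and neck, against 272 in neck and 233 in flank. In the same library MCM6 was at 183 CPM and MCM4 at 92.7, again below neck and flank. Of the mitotic kinesins, 4 of 6 lay below both, among them KIFC1 with 83.1 CPM in the library labelled flank and neck, against 119 in neck and 119 in flank, whereas KIF2C, with 141 CPM in the library labelled flank and neck, against 99.1 in neck and 90.9 in flank, lay above.

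Of the 5 cyclins 3 lay above both neck and flank in that library, and 5 did under either other scaling; 7 of the 18 other kinesins did in CPM. CCND1 had 94.7 CPM in the library labelled flank and neck, against 76.5 in neck and 57.7 in flank. KIF26A had 238 CPM in the library labelled flank and neck, against 164 in neck and 62.8 in flank. CCND2 (56.5 CPM), KIF21A (83.02 CPM) and KIF21B (58.5 CPM) lay above both as well. CDC7 was the 1 replication gene above both, with 44.5 CPM in the library labelled flank and neck, against 29.7 in neck and 26.7 in flank. CDKN1B, at 25.99 CPM in the library labelled flank and neck, against 18.9 in neck and 27.9 in flank, lay between them, as did CDKN3 in CPM. At least 2-fold differences from neck were CDKL2 (-1.52) and CDC42EP3 (-1.04), beside 18.2% of 12187 genes (6.77% higher and 11.4% lower). Those from flank were KIF26A (1.90), KIF21B (1.57) and KIF21A (1.25) above and CDC2L6 (-1.20) and CDKL2 (-1.19) below, beside 17.3% of 12090 genes (8.91% higher and 8.43% lower). Globins stood at 44.6 CPM in total in this library, the lowest of the 6, and endothelial markers at 87.9 CPM, against 167 in neck and 68.4 in flank; their part in these values was not tested.

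**Figure D5:**
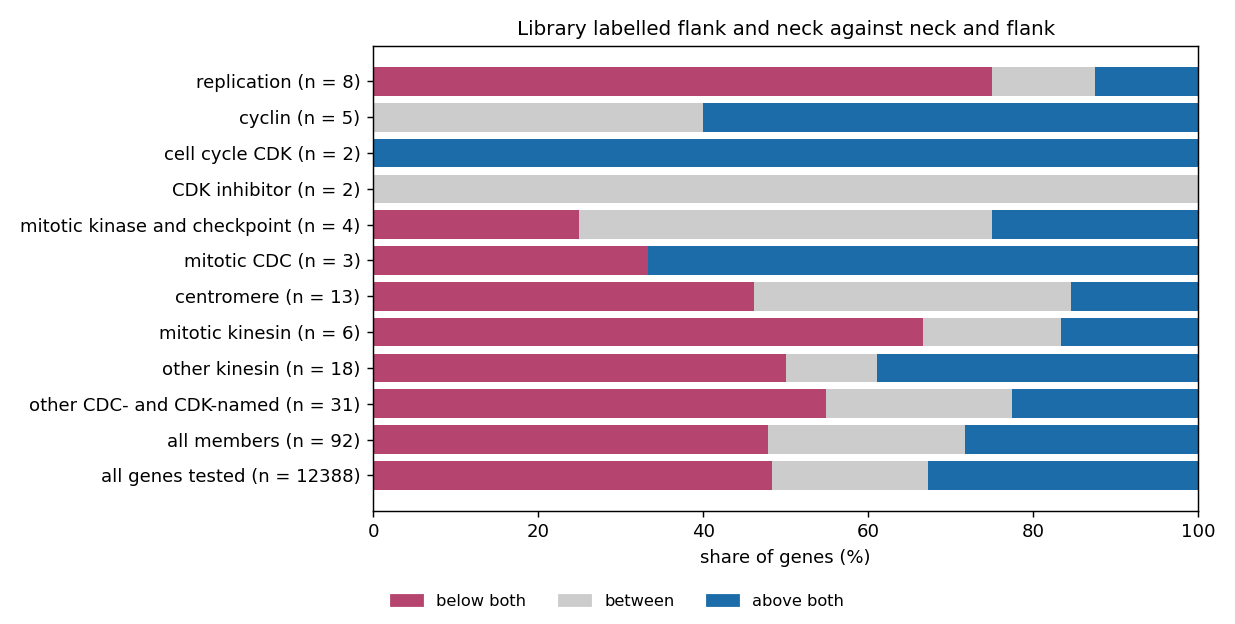
Bars give, for each group of members, the share of genes whose CPM in the library labelled flank and neck lay below, between or above the neck and flank libraries, with all members and all 12388 genes tested at the foot. Of the 8 replication genes 75% lie below both and no cyclin does, beside 48.3% of all genes.

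A further 25 genes of the same families are listed under UniProt entry names that do not show their symbol and so fall outside the name rule. Their symbols came from the RefSeq table or from a family symbol opening the entry's description. Of these, 5 lay above neck and flank in every limb library and 3 below, beside 15.4% and 27.5% of all genes, a split of 11 and 1 with TMM scaling, beside 21.7% and 21.6%. In edgeR 0 passed the adjusted test (beside 0.136%) and 6 had an unadjusted p below 0.05 (beside 23.4%), and DESeq2 called 3 (beside 11.6%). CDC20, an activator of the anaphase-promoting complex, stood at 117 CPM in hindlimb, 145 in forelimb and 117 in presumptive forelimb, against 82.3 in neck and 90.3 in flank (log2 fold change 0.68 ± 0.17, edgeR adjusted p = 0.102). BUB3, a spindle checkpoint protein, stood at 345 CPM in hindlimb, 379 in forelimb and 384 in presumptive forelimb, against 316 in neck and 266 in flank (log2 fold change 0.48 ± 0.11, edgeR adjusted p = 0.0852). CCNE2, the partner of CCNE1 at the start of S phase, stood at 21.9 CPM in hindlimb, 22.1 in forelimb and 22.9 in presumptive forelimb, against 18.4 in neck and 16.2 in flank (log2 fold change 0.50 ± 0.15, edgeR adjusted p = 0.126). The 3 below were BUB1B, CCND3 and CDC40, with log2 fold changes of -0.06 ± 0.12, -0.30 ± 0.22 and -0.37 ± 0.16. BUB1B stood at 137 CPM in hindlimb, 135 in forelimb and 129 in presumptive forelimb, against 151 in neck and 154 in flank. The D cyclin CCND3 had 16.3 CPM in hindlimb, 15.1 in forelimb and 17.1 in presumptive forelimb, against 18.2 in neck and 24.9 in flank. The mitotic kinases BUB1 and PLK1 overlapped between the classes, with log2 fold changes of 0.04 ± 0.13 and 0.05 ± 0.12. AURKAIP1, named for binding AURKA and known as a mitochondrial ribosome protein, stood at 82.6 CPM in hindlimb, 92.9 in forelimb and 84.8 in presumptive forelimb, against 47.2 in neck and 52.5 in flank (log2 fold change 0.93 ± 0.16, edgeR adjusted p = 0.0604).

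The helicase subunits in this set overlapped between the classes in CPM. MCM5 stood at 356 CPM in hindlimb, 391 in forelimb and 433 in presumptive forelimb, against 403 in neck and 323 in flank (log2 fold change 0.25 ± 0.12). MCM6 stood at 271 CPM in hindlimb, 279.7 in forelimb and 248 in presumptive forelimb, against 253 in neck and 226 in flank (log2 fold change 0.29 ± 0.12). Both had the lowest of their 5 single-tissue values in flank. The log2 fold change was 0.21 ± 0.11 for MCM2 and 0.11 ± 0.14 for MCM4. KIF11, the motor that pushes spindle poles apart, was at 148 CPM in hindlimb, 178 in forelimb and 133 in presumptive forelimb, against 191 in neck and 163 in flank, and KIF20A and KIF23, motors of cytokinesis, ranged from 149 to 157 and from 91.2 to 116 CPM over the 5 single-tissue libraries.

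Of 102 other genes of replication, cell cycle control and mitosis on a list of pathway genes, 57 entries were found. Between limb and non-limb 0 passed edgeR's adjusted test (beside 0.136% of all genes), 19 had an unadjusted p below 0.05 (beside 23.4%) and DESeq2 called 6 (beside 11.6%). In CPM 22 lay above and 15 below neck and flank in every limb library, beside the 15.4% and 27.5% of all genes given above, and with TMM scaling 24 above and 10 below, beside 21.7% and 21.6%. SKA3, a protein of the spindle attachment complex, stood at 56.5 CPM in hindlimb, 55.8 in forelimb and 58.2 in presumptive forelimb, against 40.5 in neck and 37.3 in flank (log2 fold change 0.68 ± 0.13, edgeR adjusted p = 0.0676). The sliding clamp PCNA stood at 368 CPM in hindlimb, 413 in forelimb and 394 in presumptive forelimb, against 355 in neck and 302 in flank, above in every limb library. RRM1, a ribonucleotide reductase subunit, stood at 217 CPM in hindlimb, 226 in forelimb and 193 in presumptive forelimb, against 181 in neck and 165 in flank, and RRM2, its partner, also lay above. MAD2L1, a spindle checkpoint protein, stood at 189 CPM in hindlimb, 250.3 in forelimb and 212 in presumptive forelimb, against 173 in neck and 155 in flank (log2 fold change 0.54 ± 0.16, edgeR adjusted p = 0.121).

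Other genes used as markers of dividing cells lay below neck and flank in every limb library, also with TMM scaling and when centred. FOXM1, a transcription factor of G2 and mitosis genes, stood at 138 CPM in hindlimb, 143 in forelimb and 139 in presumptive forelimb, against 218 in neck and 201 in flank (log2 fold change -0.45 ± 0.10, edgeR adjusted p = 0.0869). MKI67, the antigen Ki-67, stood at 57.99 CPM in hindlimb, 48.4 in forelimb and 49.8 in presumptive forelimb, against 74.6 in neck and 67.4 in flank (log2 fold change -0.31 ± 0.14, edgeR adjusted p = 0.248). TOP2A, the topoisomerase that untangles chromosomes, stood at 578 CPM in hindlimb, 496 in forelimb and 635 in presumptive forelimb, against 703 in neck and 664 in flank. Its log2 fold change was smaller, at -0.13 ± 0.12 (edgeR adjusted p = 0.527). The library labelled flank and neck held 537 CPM of TOP2A, below hindlimb and presumptive forelimb. It held 212 CPM of FOXM1 and 77.9 of MKI67, above every limb library. RPA3, a subunit of the single-strand binding complex, was highest in forelimb, at 32.1 CPM in hindlimb, 83.7 in forelimb and 24.8 in presumptive forelimb, against 19.5 in neck and 32.1 in flank. It was the 1 pathway gene at least 2-fold apart between forelimb and presumptive forelimb (1.71) and between hindlimb and forelimb (-1.35).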

How the data were processed

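The authors deposited 1 table with a column of reads and a normalised column for each of 6 libraries. Per the file headers the reads columns are counts per gene, whole numbers, and the deposited normalised columns are CPM: each is its counts scaled to a common total over the genes of the table. An aligner (TopHat 1.4.0) and a build (galGal4) come from the submitters' processing notes, which give no role or order; the read counter, its use of strand and the annotation are not given in the sources used here. No coordinates are printed, since names in the table such as chrUn_random were not matched to that build. The deposited fold and p-value columns were not used, and 0 per-sample columns remained unused. Initials and stage tied 1 column to the library labelled flank and neck.

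CPM were recomputed from the counts and equal the deposited values. For a pair of libraries, log2(CPM + 1) values were subtracted for members that reached 1 CPM in either, and differences were called at 2-fold. Depth was 7130877 to 9623046 reads per library and 3 reads were taken as the floor; intervals are Wilson intervals at 95%. Reads are not independent molecules, so intervals and floor cover counting error only. The class comparison of limb with non-limb used the quasi-likelihood test of edgeR (TMM, two-sided, Benjamini-Hochberg over 12486 genes, adjusted p below 0.05), with DESeq2 and limma-voom as alternatives. The fit was run on simulated counts with less spread between libraries than these data have. That run therefore does not show how many true differences the test could call here. Each SE is the size of the log2 fold change divided by the square root of edgeR's F statistic, not a separate estimate. Classes hold 3 and 2 libraries, and the labels do not say that any are replicates. A p-value therefore sets the class difference against the spread among the tissues, stages and libraries of a class. The library labelled flank and neck was left out because its tissues overlap those of the others. The values of 1 member, which is in the counts, and of 1 entry that overlaps another member are not reported here. Of the members, 16 overlap another entry of the table, 14 of them only on the opposite strand, and reads of such genes cannot be told apart if counting ignored strand.

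The members and lists were chosen with earlier results of these data known. The rule named the replication genes, cyclins, CDK1, CDK inhibitors, AURK, PLK and BUB genes and mitotic kinesins, and up to 5 members per direction with the largest log2(CPM + 1) difference in each comparison. From the pathway list it named up to 4 per direction, but the genes described between limb and non-limb do not all follow it. SGOL2 (log2 fold change -1.52, at 2.46 CPM or less), SMC4 (-0.29), NCAPH (0.64) and E2F3 (0.56) differed more than some genes described. Other genes in the text, the roles of KIF4, KIF19 and the genes put under other CDC- and CDK-named, and the 25 genes under other names were chosen after values were seen. Tables and figures were made in Python 3.11.15 with matplotlib 3.10.9, pandas 2.3.3, scipy 1.17.1 and numpy 2.4.6, and the fits in R 4.3.3 with DESeq2 1.42.0, limma 3.58.1 and edgeR 4.0.16.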

Additional observations from a re-analysis of the deposited data

Results flagged for a closer look

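In the library labelled flank and neck, which was left out of the main class test, 3 members stood well above both the neck and the flank library. CCND2 had 56.5 CPM in the library labelled flank and neck, against 29.9 in neck and 31.5 in flank, 0.82 on the log2 scale above the higher of those. KIF21A had 83.02 CPM in the library labelled flank and neck, against 48.2 in neck and 34.2 in flank, 0.77 above the higher. KIF21B had 58.5 CPM in the library labelled flank and neck, against 29.5 in neck and 19.1 in flank, 0.96 above the higher. This library has no replicate, and these differences were not tested.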

How the results depend on the processing

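No paired analysis was possible because each tissue and stage has 1 library, with 1 replicate number. The planned description of promoter letters was not run, since no promoter sequences were used here. The balance of counts turned with the scaling. More members lay below than above neck and flank in CPM and more above than below with TMM scaling or centring. The same held for the library labelled flank and neck (44 below and 26 above in CPM, 40 and 43 with TMM scaling). Small differences of single members could turn as well. CDC45L was lower in forelimb than in neck in CPM and higher after TMM scaling or centring. DESeq2 called 10 members between limb and non-limb where edgeR called 0; the cause was not tested. Leaving out each library in turn gave 0 to 2 calls, the 2 being CDK1 (0.84, edgeR adjusted p = 0.0446) and CDC7 (0.99, edgeR adjusted p = 0.042) without presumptive forelimb. Other size factors, no scaling factors, a stricter or no filter, limma-voom and the flank and neck library as an added non-limb library each gave 0.

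Members above neck and flank in every limb library numbered 18 in CPM, 31 with TMM scaling and 32 centred on the median gene, and 20 to 35 with a library left out, the most without neck. Those below numbered 21 in CPM, 13 centred, 11 with the library labelled flank and neck added, and 24 to 41 with a library left out, the most without flank. By counting intervals that do not overlap, 5 lay above and 5 below. The counts of members at least 2-fold apart moved with a pseudocount of 0.1 to 6 (forelimb minus presumptive forelimb), 5 (hindlimb minus presumptive forelimb), 3 (hindlimb minus forelimb), 10 (forelimb minus neck), 5 (presumptive forelimb minus neck) and 3 (neck minus flank). With a filter of 5 CPM they moved to 3 (forelimb minus neck), 3 (hindlimb minus neck) and 1 (presumptive forelimb minus flank). At 1.5-fold they were 14, 6 and 7 (the comparisons among limb libraries, in the order just given), 23 (forelimb minus neck), 21 (forelimb minus flank), 18 (hindlimb minus neck), 17 (hindlimb minus flank), 15 (presumptive forelimb minus neck), 14 (presumptive forelimb minus flank) and 7 (neck minus flank). Forelimb minus neck kept 1 with TMM scaling and 3 when centred, and hindlimb minus neck 3 when centred. The other 70 alternatives for these counts stayed within 1.5 times. With the library labelled flank and neck added, 13 of the 18 members above neck and flank stayed above. The alternatives added after seeing the data were those on overlap between the classes, intervals included, and on globins. With 1 library per tissue, tissue and library cannot be told apart.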
